A study of Mus musculus with 15 samples.

Results

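Kinesins are motor proteins that walk along or take apart microtubules, and their genes were measured here in CD8+ T cells from the spleens of OT-I mice with and without Susd2. Members were the rows of the deposited count table named Kif plus a number with an optional letter a, b or c, together with Kifc1, Kifc2 and Kifc3. This gave 37 kinesin genes among the 27019 genes of the table. The rule set 11 mitotic kinesins (Kif2c, Kif4, Kif11, Kif15, Kif18a, Kif18b, Kif20a, Kif20b, Kif22, Kif23 and Kifc1) against the other 26. All 11 mitotic kinesins and 20 of the other 26 had enough counts to be tested.

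The OT-I strain carries a transgenic T cell receptor specific for an ovalbumin peptide, and every library came from this background on C57BL/6. The mice were 8 to 10 weeks of age. The groups were Susd2-/- cells after 3 days with the peptide OVA257-264, WT cells after 3 days with it, untreated Susd2-/- cells (day 0) and untreated WT cells (day 0), with 2 libraries each. Peptide was given to whole splenocytes, and CD8+ T cells were then enriched with a bead kit rather than sorted. No label ties the libraries of a group to different mice. The p-values therefore speak of spread among these 8 libraries, and that spread may be technical.

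A mitotic spindle needs kinesins that push its poles apart, focus the poles, trim microtubule ends, move chromosome arms and build the central spindle at which the cell divides. Genes of these kinesins are known to be held low in resting cells and to be expressed in cells preparing for or passing through mitosis. Other kinesins carry organelles, vesicles and protein complexes in dividing and resting cells alike, and a few serve cilia or are mainly neuronal.

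Library totals ran from 26829807 to 53846911 counts. The targeted gene Susd2 had 0 and 2 counts in the Susd2-/- libraries at day 3, 16 and 10 in the WT libraries at day 3, 1 and 3 in the Susd2-/- libraries at day 0 and 90 and 80 in the WT libraries at day 0, as the genotype labels say. The 9 CD8 T cell identity genes summed to 3853 to 3860 counts per 1000000 (CPM, scaled by TMM) in Susd2-/- cells and 4066 to 4088 CPM in WT cells at day 3, and to 5649 to 5999 CPM in Susd2-/- cells and 6567 to 6592 CPM in WT cells at day 0. Macrophage and monocyte markers (9 genes, none at 0 in every library) summed to 1.83 to 2.09 CPM in Susd2-/- cells and 2.29 to 3.50 CPM in WT cells at day 3, and to 103 to 110 CPM in Susd2-/- cells and 51.1 to 52.4 CPM in WT cells at day 0. Markers of other cell types are given beside the genotype comparison of day 0.

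The make-up of the kinesin transcripts turned over between resting and activated cells. The mitotic members held 60.5% and 61.9% of all kinesin counts in the Susd2-/- libraries at day 3 and 60.3% and 60.0% in the WT libraries at day 3. At day 0 they held 10.8% and 10.6% in the Susd2-/- libraries and 8.62% and 8.71% in the WT libraries. The total given to kinesins moved far less, here as CPM over unscaled library totals, with 2085 and 2032 in Susd2-/- libraries and 2069 and 2110 in WT libraries at day 3, against 1920 and 2014 in Susd2-/- libraries and 1816 and 1857 in WT libraries at day 0. One gene, Kif21b, supplied 46.6% and 47.5% of the kinesin counts of the Susd2-/- libraries at day 0 and 46.6% and 46.2% of those of the WT libraries. At day 3 its share was 5.92% and 4.89% in Susd2-/- libraries and 5.64% and 6.61% in WT libraries.

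Levels can be compared between genes per length of exon, here as CPM per kilobase of the union of annotated exons. At day 3 Kif11 (34.1 ± 0.246 CPM per kilobase, SD, n = 2), Kifc1 (33.6 ± 4.48), Kif20a (32.5 ± 0.677) and Kif5b (32.1 ± 0.650) were the highest kinesins per kilobase in Susd2-/- cells. The 4 highest in WT cells at day 3 were Kifc1 (40.1 ± 1.89 CPM per kilobase), Kif11 (33.2 ± 0.380), Kif20a (32.0 ± 0.674) and Kif5b (30.2 ± 1.39). In Susd2-/- cells the spread of Kifc1 spans the other three, while in WT cells Kifc1 stood above them by more than the SDs. At day 0 Kif21b stood well apart at 70.2 ± 2.44 CPM per kilobase in Susd2-/- cells and 66.3 ± 0.609 in WT cells. Kif5b came next at 25.1 ± 0.512 CPM per kilobase in Susd2-/- cells and 25.5 ± 0.358 in WT cells, then Kif3b at 16.2 ± 0.398 CPM per kilobase in Susd2-/- cells and 15.8 ± 1.68 in WT cells. Kif1b, Kif2a and Kif1c were within 1 SD of each other in WT cells at day 0, at 11 ± 0.23, 10.9 ± 0.764 and 10.8 ± 0.416 CPM per kilobase. In Susd2-/- cells at day 0 Kif1c (12.9 ± 0.0993) and Kif2a (12.3 ± 0.434) stood above Kif1b (7.8 ± 0.412). The highest mitotic kinesins per kilobase in resting cells were Kifc1 (6.27 ± 0.0765 in Susd2-/- cells, 5.05 ± 0.412 in WT cells) and Kif23 (6.24 ± 0.0340 in Susd2-/- cells, 5.25 ± 0.0318 in WT cells).

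All 11 mitotic kinesins rose with activation in both genotypes. In Susd2-/- cells, 36.7% of the 16057 genes tested were called higher at day 3 than at day 0 and 39.7% lower. In WT cells, 36.2% were called higher and 39.0% lower. A gene was called when edgeR's quasi-likelihood test gave an adjusted p below 0.05 over all genes tested. The median log2 fold change of the mitotic members was 3.12 in Susd2-/- cells and 3.84 in WT cells. Over all genes tested it was -0.12 in Susd2-/- cells and -0.14 in WT cells, and the kinesin changes below stand on that shifted base. In libraries of whole cell populations, fewer cells that express a gene and less of its RNA per cell cannot be told apart.

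The widest rise was that of Kif2c, the kinesin-13 that takes apart microtubule ends at kinetochores and so helps to correct faulty chromosome attachments. It had 103 and 106 CPM in Susd2-/- libraries and 106 and 104 CPM in WT libraries at day 3, against 4.81 and 4.68 CPM in Susd2-/- libraries and 3.50 and 2.39 CPM in WT libraries at day 0. All 4 day 3 libraries lay far above all 4 day 0 libraries. The log2 fold change was 4.46 ± 0.111 (SE) in Susd2-/- cells and 5.15 ± 0.118 in WT cells, which is 22.0-fold and 35.4-fold.

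Of the kinesins that push the spindle poles apart or draw them together, Kif11 forms tetramers that slide antiparallel microtubules, and Kif15 can share that work. Kif11 had 253 and 256 CPM in Susd2-/- libraries and 246 and 250 CPM in WT libraries at day 3, against 25.4 and 27.9 CPM in Susd2-/- libraries and 16.4 and 18.2 CPM in WT libraries at day 0. Kif15 had 162 and 165 CPM in Susd2-/- libraries and 151 and 158 CPM in WT libraries at day 3, against 14.3 and 12.2 CPM in Susd2-/- libraries and 7.97 and 6.66 CPM in WT libraries at day 0. Their log2 fold changes at day 3 were 3.25 (Kif11) and 3.63 (Kif15) in Susd2-/- cells and 3.84 (Kif11) and 4.39 (Kif15) in WT cells. Kifc1, a minus-end-directed kinesin-14 that bundles microtubules at the poles, had 126 and 104 CPM in Susd2-/- libraries and 132 and 142 CPM in WT libraries at day 3, against 21.2 and 21.6 CPM in Susd2-/- libraries and 16.2 and 18.2 CPM in WT libraries at day 0. It rose by a log2 fold change of 2.42 in Susd2-/- cells and 2.99 in WT cells. Kifc5b is a near-identical copy of Kifc1, and how reads that fit both were counted is not given in the sources used here, so both counts are uncertain. Kifc5b, which lies outside the rule, also rose at day 3, by 1.42 in Susd2-/- cells and 1.57 in WT cells on the log2 scale.

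Both kinesin-8 motors rose. Kif18b, which limits the length of astral microtubules, had 63.3 and 60.0 CPM in Susd2-/- libraries and 69.8 and 69.1 CPM in WT libraries at day 3, against 7.78 and 6.32 CPM in Susd2-/- libraries and 3.59 and 3.62 CPM in WT libraries at day 0. Its log2 fold change was 3.12 in Susd2-/- cells and 4.27 in WT cells. Kif18a, which damps the swings of chromosomes on the spindle, had 33.7 and 35.0 CPM in Susd2-/- libraries and 34.0 and 33.1 CPM in WT libraries at day 3. Per kilobase it was the lowest mitotic member at day 3, at 3.49 ± 0.0976 CPM per kilobase in Susd2-/- cells and 3.42 ± 0.0659 in WT cells (SD, n = 2). At day 0 it had 6.61 and 5.57 CPM in Susd2-/- libraries and 5.28 and 8.16 CPM in WT libraries, and its log2 fold change was 2.49 in Susd2-/- cells and 2.33 in WT cells.

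The chromokinesins, which bind chromosome arms, rose as well. Kif4 works with Prc1 on the central spindle. It had 101 and 106 CPM in Susd2-/- libraries and 106 and 104 CPM in WT libraries at day 3, against 7.31 and 8.14 CPM in Susd2-/- libraries and 3.53 and 4.47 CPM in WT libraries at day 0. Kif22, which pushes chromosome arms away from the poles, had 138 and 131 CPM in Susd2-/- libraries and 129 and 136 CPM in WT libraries at day 3, against 18.3 and 16.5 CPM in Susd2-/- libraries and 13.2 and 13.7 CPM in WT libraries at day 0. The log2 fold change of Kif4 was 3.75 in Susd2-/- cells and 4.72 in WT cells. That of Kif22 was 2.95 in Susd2-/- cells and 3.30 in WT cells.

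The kinesins of late mitosis and cytokinesis spread the most. Kif20a, which brings the chromosomal passenger complex to the central spindle, had 139 and 143 CPM in Susd2-/- libraries and 141 and 137 CPM in WT libraries at day 3, against 7.88 and 9.88 CPM in Susd2-/- libraries and 6.12 and 7.31 CPM in WT libraries at day 0. Its log2 fold change was 3.99 in Susd2-/- cells and 4.37 in WT cells. Kif20b, a relative with a part in completing cytokinesis, rose by 1.94 in Susd2-/- cells and 2.11 in WT cells on the log2 scale. Kif23, the motor of the centralspindlin complex, rose least, by 1.06 in Susd2-/- cells and 1.23 in WT cells on the log2 scale. Kif23 had 101 and 104 CPM in Susd2-/- libraries and 99.9 and 95.1 CPM in WT libraries at day 3, against 49.1 and 49.5 CPM in Susd2-/- libraries and 41.7 and 41.3 CPM in WT libraries at day 0. Resting cells thus held 50.5% (Susd2-/-) and 42.6% (WT) of the mean WT day 3 level of Kif23, but 4.52% (Susd2-/-) and 2.80% (WT) of that of Kif2c. Kif4, Kif18a and Kif20a overlap a gene on the opposite strand (Pdzd11, Mettl15 and Cdc23), and Kif11, Kif18b and Kif22 overlap predicted ones. The library kit kept strand, but whether the counting used it is not given in the sources used here, so these counts are less certain.

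**Figure D1:**
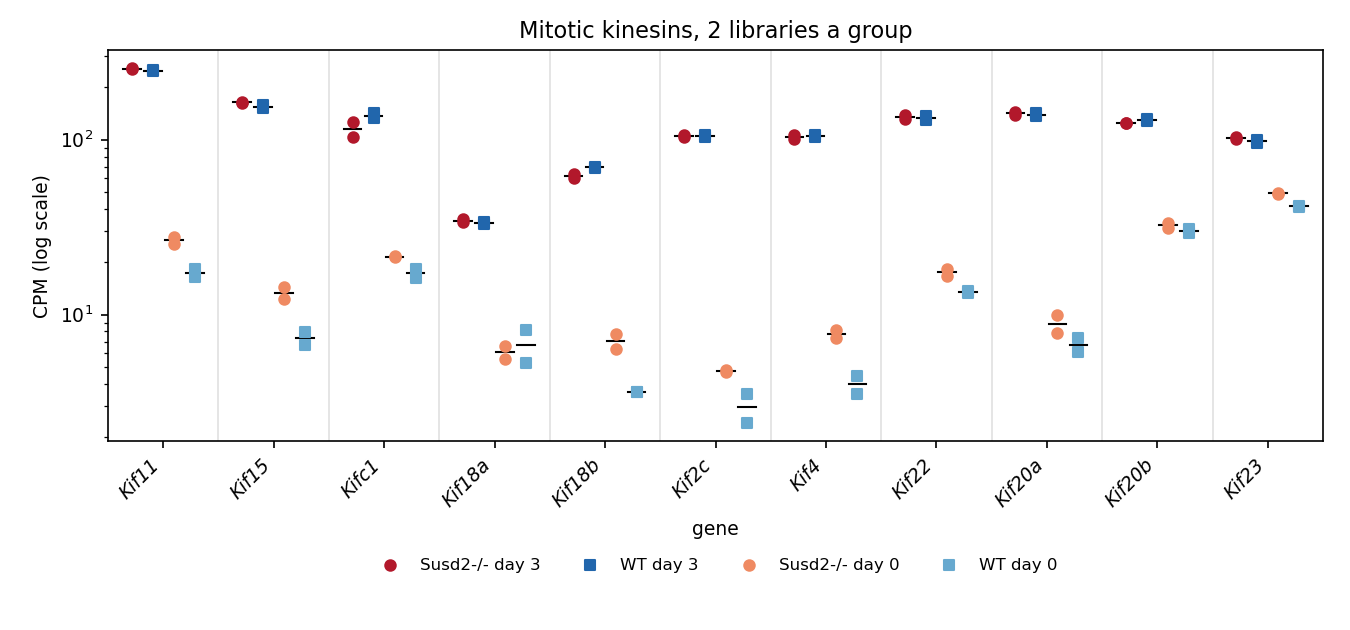
CPM of each mitotic kinesin (log axis) in each library, with black bars for the group mean of 2 libraries. From left to right for each gene: Susd2-/- day 3, WT day 3, Susd2-/- day 0, WT day 0. The day 3 points of the 2 genotypes lie close together, yet do not overlap for 6 of the 11 genes, in either direction. At day 0 the Susd2-/- points lie above the WT points for 10 of the 11 genes and overlap them for Kif18a. Lack of overlap was not particular to the mitotic group. At day 0 the genotypes also did not overlap, in either direction, for 11 of the 20 other kinesins tested. The same held for 15 of 19 tested dynein and dynactin genes and for 10 of 14 tubulins. At day 3 it held for 8 of the 20 other kinesins. The share of all genes without overlap was not taken.

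Since the mitotic members rose together, their promoters were read from RefSeq's mouse annotation (GRCm38.p6), in windows from 250 bases before to 50 bases after the annotated start. Promoters were matched for 29 of the 37 kinesins and for 10 of the 11 mitotic ones, Kif20a being without one here. A pair of elements known from promoters of mitotic genes were searched on both strands. One was the CHR (cell cycle genes homology region), spelled TTTGAA or TTTAAA, which is known to be bound by the MuvB complexes that repress such genes in resting cells and activate them before mitosis. The other was CCAAT, the box bound by NF-Y. Matches that share end bases were each counted. Counts are by gene, and a gene counts if any of its promoters holds the match. The 10 mitotic genes had 10 promoters and the 19 other kinesins had 23. TTTGAA was found in 9 of 10 mitotic genes (90%), in 4 of 19 other kinesins (21.1%) and in 20.2% of the 27025 genes with a promoter in the table. TTTAAA was found in 1 of 10 mitotic genes (10%), 1 of 19 other kinesins (5.26%) and 14.9% of all genes. CCAAT was found in 6 of 10 mitotic genes (60%), 7 of 19 other kinesins (36.8%) and 41.1% of all genes. TTTGAA or TTTAAA together with CCAAT stood in 6 of 10 mitotic genes, 3 of 19 other kinesins (15.8%) and 12.2% of all genes.

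Most of the 12 TTTGAA matches lay close to the start, and 3 lay farther upstream, with their first base at -234 in Kif15, -215 in Kif22 and -103 in Kif2c. A window from 30 bases before to 29 bases after the start was set after the positions were seen. This window held TTTGAA in 8 of 10 mitotic genes (80%), 1 of 19 other kinesins (5.26%) and 3.39% of all genes. The 90 bases from -60 to 29, with the annotated start as base 0, are shown for all 10 mitotic promoters so that the placing of the elements can be compared, with Kif18a as the member that holds none of them in 300 bases. Capitals mark TTTGAA or its reverse complement TTCAAA, and CCAAT or its reverse complement ATTGG.
Kif11, chr19:37376322-37376411, plus strand: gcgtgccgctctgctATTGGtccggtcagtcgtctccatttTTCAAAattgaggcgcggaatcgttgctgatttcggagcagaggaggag
Kif15, chr9:122951021-122951110, plus strand: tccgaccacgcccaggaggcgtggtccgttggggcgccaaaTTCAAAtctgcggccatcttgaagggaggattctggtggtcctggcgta
Kifc1, chr17:33890604-33890693, minus strand: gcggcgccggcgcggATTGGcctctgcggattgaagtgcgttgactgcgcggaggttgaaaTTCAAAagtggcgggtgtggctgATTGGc
Kif18b, chr11:102925095-102925184, minus strand: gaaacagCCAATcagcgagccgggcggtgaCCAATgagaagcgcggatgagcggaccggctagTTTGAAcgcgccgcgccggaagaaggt
Kif4, chrX:100626005-100626094, plus strand: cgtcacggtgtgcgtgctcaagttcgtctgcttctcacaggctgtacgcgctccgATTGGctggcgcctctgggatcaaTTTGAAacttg
Kif22, chr7:127042391-127042480, minus strand: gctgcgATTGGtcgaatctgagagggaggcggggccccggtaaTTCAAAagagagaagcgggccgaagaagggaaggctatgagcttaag
Kif20b, chr19:34922298-34922387, plus strand: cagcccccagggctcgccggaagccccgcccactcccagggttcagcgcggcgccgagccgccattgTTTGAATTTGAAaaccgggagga
Kif23, chr9:61946770-61946859, minus strand: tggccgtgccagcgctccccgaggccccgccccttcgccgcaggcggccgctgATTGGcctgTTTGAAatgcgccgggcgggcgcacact
Kif2c, chr4:117178743-117178832, minus strand: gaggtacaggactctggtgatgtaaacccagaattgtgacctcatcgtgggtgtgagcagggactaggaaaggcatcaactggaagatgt
Kif18a, chr2:109280678-109280767, plus strand: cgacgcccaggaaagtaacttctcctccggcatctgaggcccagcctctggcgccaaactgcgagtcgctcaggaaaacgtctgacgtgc

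Kif20b carried TTTGAA as 2 copies end to end. The TTTGAA of Kif2c lay upstream of the bases shown. The RefSeq start of Kif2c lay 3867 bases downstream of the start of the gene in GENCODE, so the 2 annotations place its promoter apart. For the other mitotic members the 2 annotations differed by 0 to 328 bases. A match of letters is a description of these windows and shows no binding, and the activity of these promoters was not measured.

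**Figure D2:**
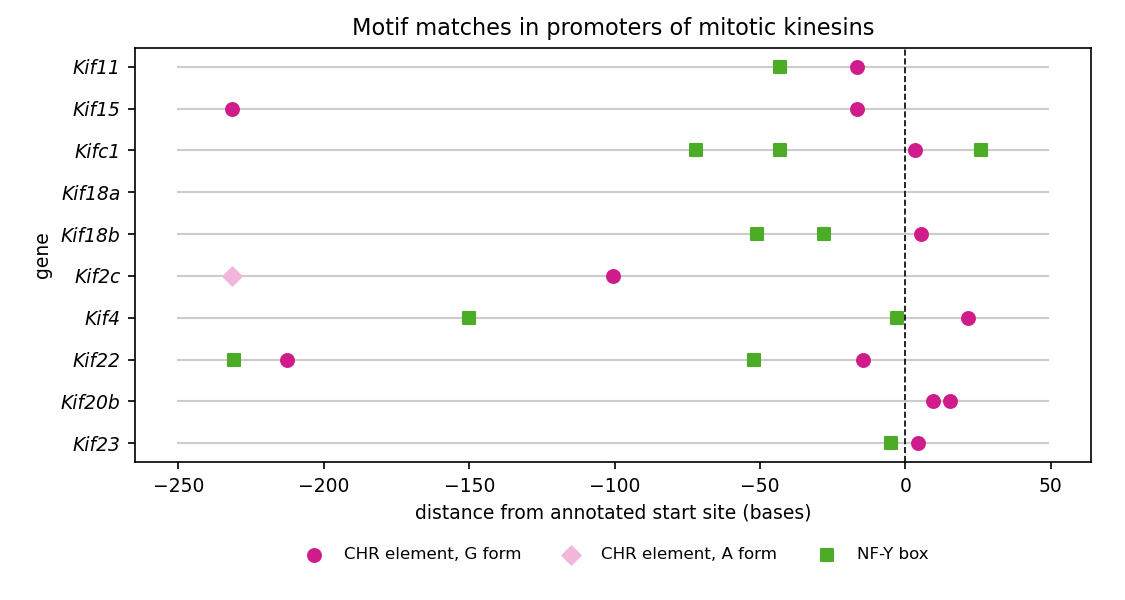
Places of matches to the CHR element (circles and the diamond, for its G and A forms) and to the NF-Y box (squares) in the RefSeq promoters of 10 mitotic kinesins, by distance in bases from the annotated start (dashed line). In 8 of the 10 genes a circle lies within 30 bases of the start, that of Kif2c lies farther upstream, and Kif18a has no match.

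Among the 20 other kinesins tested, 7 rose, 9 fell and 4 were not called in Susd2-/- cells, and 8 rose, 8 fell and 4 were not called in WT cells. These shares are near those of all genes tested, of which 36.7% rose and 39.7% fell in Susd2-/- cells and 36.2% rose and 39.0% fell in WT cells. Kif14 and Kif24 rose with activation in the range of the mitotic group, although the rule does not count them there. They were singled out after their values were seen. Kif14, which acts in cytokinesis, had 72.3 and 63.3 CPM in Susd2-/- libraries and 67.9 and 61.9 CPM in WT libraries at day 3, against 4.91 and 6.56 CPM in Susd2-/- libraries and 4.53 and 3.14 CPM in WT libraries at day 0. Its log2 fold change was 3.57 in Susd2-/- cells and 4.07 in WT cells. Kif24, a kinesin-13 of the centriole that restrains cilia, rose by 2.75 in Susd2-/- cells and 2.63 in WT cells on the log2 scale. The RefSeq promoter window of Kif14 held both CHR spellings and the NF-Y box. Its RefSeq start lay 1505 bases downstream of the start of the gene in GENCODE, inside the gene. The window of Kif24 held only the NF-Y box.

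Of the transport kinesins that rose, Kif3a and Kif13a rose most. Kif3a, a motor subunit of heterotrimeric kinesin-2, had 8.29 and 11.2 CPM in Susd2-/- libraries and 9.43 and 9.91 CPM in WT libraries at day 3, against 5.47 and 4.41 CPM in Susd2-/- libraries and 4.25 and 4.30 CPM in WT libraries at day 0. Its log2 fold change was 0.99 in Susd2-/- cells and 1.18 in WT cells. Kifap3, the non-motor subunit of the same complex, rose with a log2 fold change of 1.77 in Susd2-/- cells and 1.61 in WT cells. The partner motor Kif3b was not called in either genotype, at -0.04 in Susd2-/- cells and 0.11 in WT cells on the log2 scale, and its day 3 and day 0 libraries overlapped. Kif5b, the widely expressed heavy chain of conventional kinesin, rose by a log2 fold change of 0.36 in Susd2-/- cells and 0.24 in WT cells. The endosomal kinesins Kif13a (0.83 in Susd2-/- cells, 1.04 in WT cells) and Kif16b (0.30 in Susd2-/- cells, 0.36 in WT cells) rose in both genotypes, as did Kif7, known from hedgehog signalling in the cilium (0.56 in Susd2-/- cells, 0.84 in WT cells). Kif2a, a kinesin-13 active in interphase cells too, rose in WT cells (0.30) and was not called in Susd2-/- cells (0.10). The difference between the genotypes in this step was not called (interaction -0.20, edgeR adjusted p = 0.212). Kif7 was no longer called in Susd2-/- cells without Susd2-/- day 0 library 4 (0.42) or Susd2-/- day 3 library 1 (0.25), and Kif16b not in WT cells without WT day 0 library 3 (0.27). With the day 0 libraries of each genotype as 1 sample, the calls of Kif7 (0.52) and Kif16b (0.27) in Susd2-/- cells and of Kif5b (0.21) in WT cells were lost.

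Leaving aside Kif19a, which had too few reads for a firm size, Kifc2 and Kif21b fell most in both genotypes. Kifc2, a minus-end-directed kinesin best known from nerve cells, had 0.539 and 0.276 CPM in Susd2-/- libraries and 0.517 and 0.212 CPM in WT libraries at day 3, against 15.1 and 15.6 CPM in Susd2-/- libraries and 9.59 and 14.8 CPM in WT libraries at day 0. Its log2 fold change was -5.33 ± 0.328 (SE) in Susd2-/- cells and -5.02 ± 0.346 in WT cells. Kif21b, which restrains microtubule growth and in a human T cell line affects the turning of the centrosome towards the target cell, had 132 and 105 CPM in Susd2-/- libraries and 126 and 149 CPM in WT libraries at day 3. At day 0 it had 835 and 877 CPM in Susd2-/- libraries and 802 and 813 CPM in WT libraries. It fell by 2.85 on the log2 scale in Susd2-/- cells and by 2.55 in WT cells.

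Kif1b, a kinesin-3 that carries mitochondria and vesicle precursors, had 47.2 and 43.3 CPM in Susd2-/- libraries and 52.6 and 57.0 CPM in WT libraries at day 3, against 132 and 143 CPM in Susd2-/- libraries and 190 and 196 CPM in WT libraries at day 0. It fell in both genotypes, with log2 fold changes of -1.60 in Susd2-/- cells and -1.82 in WT cells. Kif13b, a kinesin-3 known to bind the scaffold Dlg1, had 19.2 and 20.9 CPM in Susd2-/- libraries and 22.6 and 19.6 CPM in WT libraries at day 3, against 60.9 and 64.2 CPM in Susd2-/- libraries and 46.0 and 50.1 CPM in WT libraries at day 0. It fell by 1.64 on the log2 scale in Susd2-/- cells and by 1.19 in WT cells. Kif3c, a further kinesin-2 motor, had 7.14 and 6.32 CPM in Susd2-/- libraries and 7.11 and 9.06 CPM in WT libraries at day 3, against 16.9 and 20.9 CPM in Susd2-/- libraries and 19.9 and 19.0 CPM in WT libraries at day 0. It fell by 1.50 in Susd2-/- cells and by 1.27 in WT cells on the log2 scale. Kif1c, a kinesin-3 that carries integrin vesicles, fell in Susd2-/- cells by 0.51 and was not called in WT cells, where its log2 fold change was 0.10.

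The falls of Kif5c, a heavy chain best known from neurons, and Kifc3, a minus-end motor of cell junctions, rested on less. Kif5c had 2.09 and 2.21 CPM in Susd2-/- libraries and 1.49 and 1.34 CPM in WT libraries at day 3, against 3.26 and 3.86 CPM in Susd2-/- libraries and 3.47 and 4.41 CPM in WT libraries at day 0. Its log2 fold change was -0.72 in Susd2-/- cells and -1.47 in WT cells. In Susd2-/- cells its call was lost without 5 of the 8 libraries in turn, namely Susd2-/- day 0 libraries 3 (-0.78) and 4 (-0.60), WT day 0 library 3 (-0.65) and Susd2-/- day 3 libraries 1 (-0.68) and 2 (-0.75). It was also lost without a filter on low counts (-0.64), from lane 1 only (-0.32) and with the day 0 libraries of each genotype as 1 sample (-0.76). Kifc3 fell by 1.20 in Susd2-/- cells and by 0.84 in WT cells on the log2 scale, and the call in WT cells was lost without WT day 0 library 3 (-0.65) or WT day 3 library 1 (-0.63). Kif19a, a kinesin of cilia, was called lower in both genotypes from very few reads, with 0 and 0 counts in Susd2-/- libraries and 2 and 0 counts in WT libraries at day 3, against 6 and 24 counts in Susd2-/- libraries and 12 and 10 counts in WT libraries at day 0. In WT cells that call was lost without any 1 of 4 libraries, namely Susd2-/- day 0 library 4, WT day 0 libraries 3 and 4 and WT day 3 library 2, and with the day 0 libraries of each genotype as 1 sample. Kif2a, Kifc2 and Kif7 overlap Dimt1, Cyhr1 and Ticrr on the opposite strand, and Kif3c, Kif5b, Kif13a and Kif16b overlap genes there that have no functional name. Kif5a and Kif9 were not called in either genotype. The 6 kinesins that did not pass the filter were Kif17, Kif1a, Kif21a, Kif26a, Kif26b and Kif27, with 1 to 25 counts each over all 8 libraries.

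**Figure D3:**
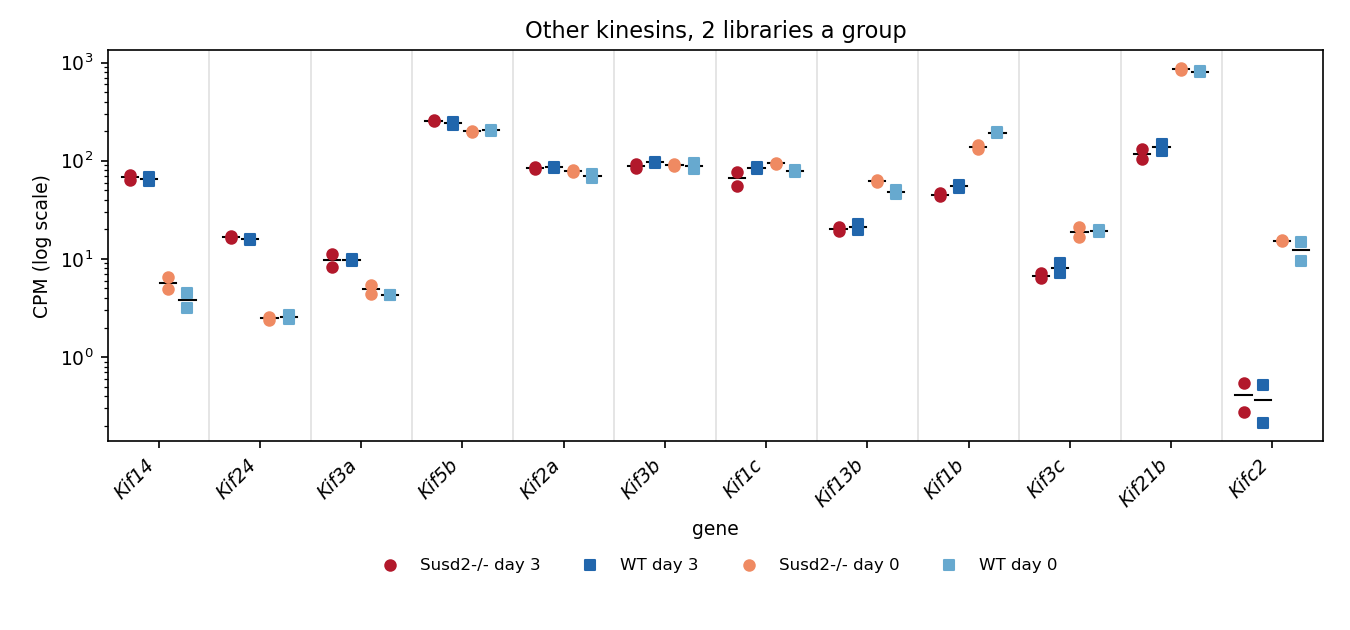
CPM of 12 kinesins outside the mitotic group (log axis) in each library, ordered roughly from rise to fall, with black bars for the group mean of 2 libraries. From left to right for each gene: Susd2-/- day 3, WT day 3, Susd2-/- day 0, WT day 0. Kif14 and Kif24 are higher at day 3, Kif3b overlaps between the days, and Kif21b and Kifc2 are lower at day 3.

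In untreated cells most mitotic kinesins were higher without Susd2. At day 0, 9 of the 11 rose in Susd2-/- cells and none fell, where 11.5% of all genes tested were called higher and 12.1% lower. The median log2 fold change of the 11 was 0.40, beside 0.01 over all genes tested. Of the 20 other kinesins tested, 2 rose, 1 fell and 17 were not called, with a median of 0.14. The libraries of a genotype lay close together at day 0. Their chi-square per degree of freedom was 6.30 between the Susd2-/- libraries and 3.37 between the WT libraries, beside 3.01 to 3.17 between lanes of 1 library and 12.5 to 16.0 between libraries of a group at day 3. With the day 0 libraries of each genotype counted as 1 sample, 5 mitotic kinesins and 1 other were called. The summed level of the 11 mitotic members was 194 and 196 CPM in Susd2-/- libraries against 148 and 153 CPM in WT libraries at day 0, while that of the other members was 1598 and 1651 CPM in Susd2-/- libraries against 1572 and 1607 CPM in WT libraries. Untreated cells of either genotype stayed far below the activated level, which summed over the mitotic members to 1345 and 1335 CPM in Susd2-/- libraries and 1346 and 1355 CPM in WT libraries at day 3.

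Kif18b and Kif4 differed most between the genotypes at day 0. Kif18b, at 7.78 and 6.32 CPM in Susd2-/- libraries against 3.59 and 3.62 CPM in WT libraries, had a log2 fold change of 0.97 ± 0.135 (SE, edgeR adjusted p = 3.86e-05). Kif4 had one of 0.95 ± 0.124 (edgeR adjusted p = 2.18e-05), Kif15 of 0.85 ± 0.106 (1.12e-05) and Kif11 of 0.63 ± 0.0785 (1.30e-05). These 4 kept their call under every alternative and without any single library. Kif2c rose by 0.68 ± 0.149 (edgeR adjusted p = 0.00256), but lost its call without WT day 0 library 4, where it was 0.43 (adjusted p = 0.0740). The 2 WT libraries held 3.50 and 2.39 CPM of it.

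The other 4 calls were smaller and less firm. Kif20a rose by 0.40 ± 0.118, Kif22 by 0.37 ± 0.0875, Kifc1 by 0.31 ± 0.100 and Kif23 by 0.25 ± 0.0712 (log2 fold change ± SE), with edgeR adjusted p from 0.00431 (Kif22) to 0.0297 (Kifc1). For each of them both Susd2-/- libraries lay above both WT libraries. The call of Kif20a was lost without Susd2-/- library 4 (0.24) or WT library 3 (0.26), that of Kif22 without Susd2-/- library 3 (0.28) or WT library 3 (0.33), and that of Kifc1 without Susd2-/- library 3 (0.31), Susd2-/- library 4 (0.31) or WT library 3 (0.22). That of Kif23 was lost without any one of the 4 day 0 libraries, with values of 0.23 to 0.25. All 4 calls were also lost with the day 0 libraries of each genotype as 1 sample. Those of Kif20a, Kif22 and Kifc1 were lost from lane 1 only, those of Kif20a and Kifc1 in limma voom, that of Kif20a with the day 0 libraries alone and that of Kif23 without a filter on low counts. Without WT library 3, 5 mitotic kinesins were called. The near copy Kifc5b was not called (0.03 ± 0.139).

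Kif20b and Kif18a were the mitotic members that were not called at day 0. Kif20b had 31.2 and 33.5 CPM in Susd2-/- libraries against 30.8 and 29.3 CPM in WT libraries, a log2 fold change of 0.11 with a 95% interval from -0.05 to 0.26. Kif18a had 6.61 and 5.57 CPM in Susd2-/- libraries against 5.28 and 8.16 CPM in WT libraries, which overlap, and a log2 fold change of -0.13 with an interval from -0.50 to 0.23. Differences between members were not tested.

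Outside the mitotic group, Kif14 rose by 0.57 ± 0.183 at day 0 (edgeR adjusted p = 0.0351) and Kif13b by 0.38 ± 0.0936 (0.00594). Kif14 lost its call without Susd2-/- library 4 (0.35) or WT library 4 (0.32), and Kif13b without Susd2-/- library 4 (0.35) or WT library 3 (0.31), and both with the day 0 libraries of each genotype as 1 sample. Kif14 was also not called in limma voom. Without Susd2-/- library 4 only Kif1b of the other kinesins was called. Kif24 did not follow Kif14, with 2.59 and 2.39 CPM in Susd2-/- libraries against 2.44 and 2.66 CPM in WT libraries. Kif1b was the one kinesin that fell. Its 132 and 143 CPM in Susd2-/- libraries lay below 190 and 196 CPM in WT libraries, with a log2 fold change of -0.49 ± 0.0703 (edgeR adjusted p = 5.18e-05) that held under every alternative. The 2 highest kinesins per kilobase in resting cells were not called, Kif21b at 0.08 (95% interval -0.15 to 0.31) and Kif5b at -0.03 (-0.15 to 0.10).

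**Figure D4:**
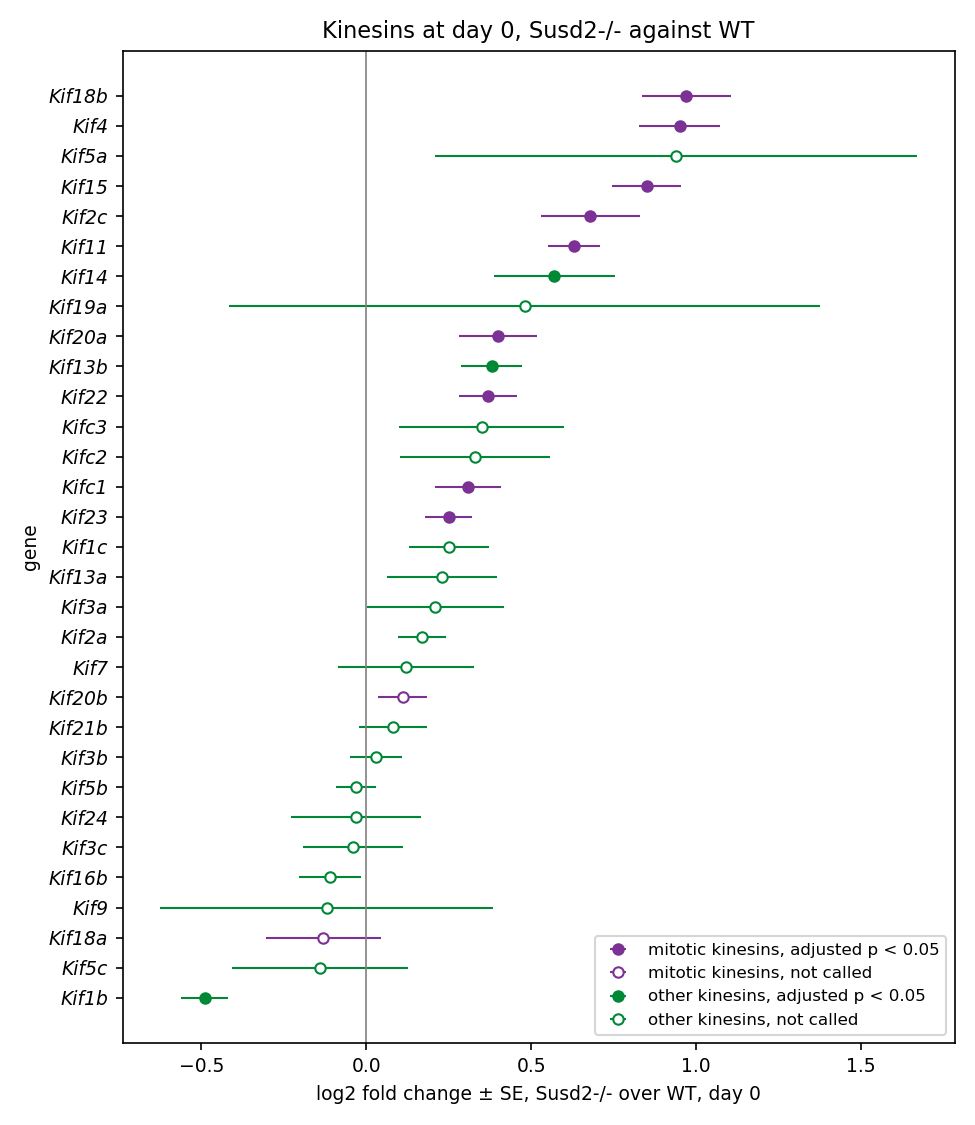
Log2 fold change of Susd2-/- over WT at day 0 (points, with bars of 1 SE) for all 31 kinesins tested, sorted from highest to lowest. Filled points had an edgeR adjusted p below 0.05. Of the filled points 11 lie right of 0 (9 of them mitotic) and Kif1b alone lies left of it.

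At day 3 none of the 31 kinesins was called between the genotypes, where 0.0498% of all genes tested were called higher and 0.0872% lower in Susd2-/- cells. Of the 31, 3 had an unadjusted p below 0.05 in edgeR (Kifc1, Kif1b and Kif1c), and DESeq2 and limma voom called none. The mitotic members ran from -0.26 (Kifc1) to 0.09 (Kif15) in log2 fold change, with a median of 0.02 against 0.00 over all genes. The intervals were narrow: that of Kif11 ran from -0.10 to 0.18, that of Kif4 from -0.18 to 0.15 and that of Kif2c from -0.19 to 0.17, each below the estimate of the same gene at day 0. The 2 Susd2-/- libraries of day 3 weighed unequally on this result. Without library 1, Kifc1 (-0.40), Kif1c (-0.60), Kif21b (-0.39) and Kif1b (-0.34) were called lower in Susd2-/- cells. These calls rest on Susd2-/- day 3 library 2 alone, which was the lower of the 2 for each of these genes. Kifc1, for example, had 126 CPM in library 1 and 104 CPM in library 2. Kif1c had 76.5 and 55.4 CPM in the Susd2-/- libraries, of which library 2 is the lower, against 82.0 and 86.1 CPM in WT libraries. At day 0 Kif1c had 94.3 and 93.3 CPM in Susd2-/- libraries against 76.5 and 80.7 CPM in WT libraries, a log2 fold change of 0.25 that was not called (edgeR adjusted p = 0.169).

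The change of the genotype difference between the days was tested as the interaction, in which 6.60% of all genes were called higher and 6.88% lower. A value called lower means that the log2 fold change from day 0 to day 3 was lower in Susd2-/- cells than in WT cells, be it a smaller rise or a larger fall. It was called lower for 7 of the 11 mitotic kinesins, for 2 of the 20 others tested, and higher for none. The 7 were Kif18b (-1.14 ± 0.163, SE, edgeR adjusted p = 1.52e-04), Kif4 (-0.97 ± 0.148), Kif15 (-0.77 ± 0.131), Kif2c (-0.69 ± 0.171), Kif11 (-0.59 ± 0.103), Kifc1 (-0.57 ± 0.131) and Kif22 (-0.35 ± 0.113, 0.0468). Kif18b, Kif4, Kif15 and Kif11 kept this call under every alternative run for it. Kif2c lost it without Susd2-/- day 0 library 3 (-0.62) or WT day 0 library 4 (-0.44), Kifc1 without WT day 0 library 3 (-0.45), and Kif22 without any of 6 libraries in turn, all but Susd2-/- day 0 library 4 and Susd2-/- day 3 library 1, with values from -0.37 to -0.23. Of the others, Kif1c (-0.61 ± 0.172) lost it without Susd2-/- day 0 library 4 (-0.62) or WT day 0 library 4 (-0.64), and Kif13b (-0.45 ± 0.137) without any of 6 libraries in turn, all but Susd2-/- day 3 library 2 and WT day 3 library 2, with values from -0.50 to -0.28. With the day 0 libraries of each genotype as 1 sample, all 5 of these calls were lost. Kif2c and Kif22 were not called in limma voom, Kif22 and Kif13b not without a filter on low counts, and Kif22 not from lane 1 only. Kif20a (-0.38, edgeR adjusted p = 0.0864), Kif20b (-0.17), Kif23 (-0.17) and Kif18a (0.17) were not called.

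**Figure D5:**
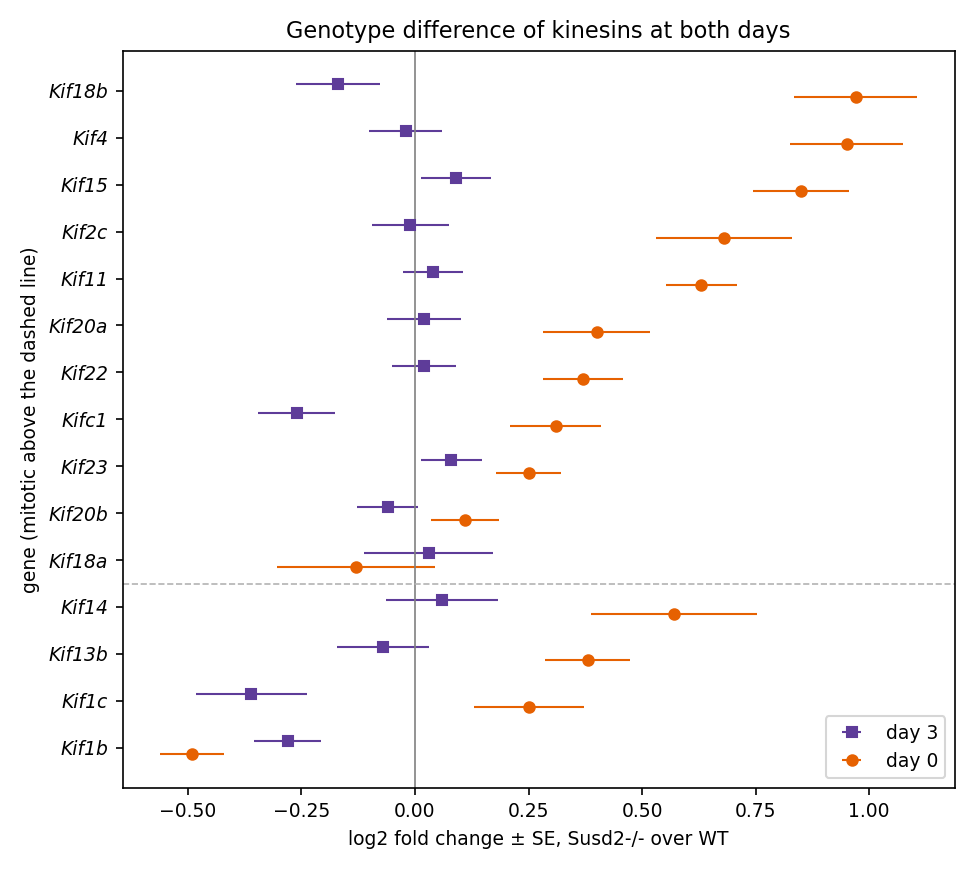
Log2 fold change of Susd2-/- over WT (points, with bars of 1 SE) at day 3 (squares, upper of each pair) and at day 0 (circles, lower) for the 11 mitotic kinesins, above the dashed line, and 4 others. Circles of 9 mitotic kinesins lie right of 0 with an edgeR adjusted p below 0.05, while their squares lie between -0.26 and 0.09 and none is called.

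The genes that work with these motors were described from lists chosen beside them. At day 0, 11.5% of all genes tested were called higher in Susd2-/- cells and 12.1% lower, with a median log2 fold change of 0.01. Partners of the centralspindlin and chromosomal passenger complexes rose at day 0 in Susd2-/- cells in 8 of 8 cases, with a median log2 fold change of 0.74. These partners include Racgap1, which binds Kif23 (0.64), Prc1, which recruits Kif4 (0.69), and the passenger subunits Birc5 (1.04) and Cdca8 (0.79). Of 11 spindle assembly partners, 9 rose and 2 were not called, with a median of 0.60. Tpx2, which activates the Aurora A kinase and binds Kif11 and Kif15, rose by 1.00. Mki67, a marker of cycling cells, had 135 and 152 CPM in Susd2-/- libraries against 67.8 and 66.9 CPM in WT libraries at day 0, and 1052 and 973 CPM in Susd2-/- libraries against 1068 and 1006 CPM in WT libraries at day 3. At day 3 none of the 8 or the 11 partners was called between the genotypes, none had an unadjusted p below 0.05 in edgeR, and DESeq2 and limma voom called none. Without Susd2-/- day 3 library 1, 1 of the 8 was called lower in Susd2-/- cells.

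The counts for lists around the transport motors are to be read against the 11.5% of all genes called higher and 12.1% called lower at day 0, and the lists were not tested against each other. Of 15 kinesin light chains and cargo adaptors, 4 rose at day 0 in Susd2-/- cells and none fell, with a median of 0.10, Spag9 (0.35) and Trak1 (0.27) among them. Without Susd2-/- day 0 library 4, or without WT day 0 library 3 or 4, 1 of the 15 was called. Of 19 tested genes of cytoplasmic dynein and dynactin, the minus-end motor and its cofactor, 3 rose and 3 fell, the heavy chain Dync1h1 rising by 0.38 and Actr10 falling by 0.32 on the log2 scale. These counts are near those shares. Without Susd2-/- day 0 library 4 none of these 19 was called lower, and without WT day 0 library 3 or 4 only 1 was. The shares of the 14 tubulins were near them too, as 1 rose (Tubb2a, 0.53) and 2 fell (Tuba1a, -0.27, and Tuba4a, -0.22), and neither fall was called without Susd2-/- day 0 library 4 or WT day 0 library 4, and 1 was without WT day 0 library 3. At day 0 markers of other cell types moved with the genotype as well. Of the 9 macrophage and monocyte genes 6 rose and 3 were not called, their sum was 103 to 110 CPM in Susd2-/- cells against 51.1 to 52.4 CPM in WT cells, and of the 9 CD8 T cell identity genes 5 fell and none rose. Of 6 B cell genes Pax5 rose (2.44) and 5 were not called, with a median of 1.01. Their sum was 19.5 to 22.0 CPM in Susd2-/- cells against 19.0 to 21.2 CPM in WT cells, and Cd79b alone of them was lower (-0.35, not called). Of 3 tested plasma cell genes 1 rose and 2 fell, Jchain by 2.24 on the log2 scale, and the sum of the 4 on the list was 7.21 to 8.58 CPM in Susd2-/- cells against 33.9 to 35.8 CPM in WT cells. Of 2 tested neutrophil genes 1 rose. The sum of the 5 on the list was 2.80 to 2.85 CPM in Susd2-/- cells against 1.06 to 1.33 CPM in WT cells. The 3 NK cell genes summed to 9.43 to 9.78 CPM in Susd2-/- cells against 13 to 14.8 CPM in WT cells, with none called. The 5 dendritic cell genes summed to 8.68 to 10.3 CPM in Susd2-/- cells against 12.6 to 13.3 CPM in WT cells. Of the 4 of them tested, 1 rose and 1 fell. The 4 CD4 and regulatory T cell genes summed to 14.3 to 15.6 CPM in Susd2-/- cells against 10.6 to 12.1 CPM in WT cells. None of these 4 was called. The erythroid sums overlapped between the genotypes, with 1 gene called lower. Those of megakaryocyte and platelet genes overlapped too, with none called. No gene of these lists was at 0 in every library. At day 3 the macrophage sum was at most 3.50 CPM in any library. The part of other cells in the day 0 difference of the mitotic kinesins was not tested.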

How the data were processed

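Poly(A) RNA was sequenced as paired ends after a stranded preparation, per the labels' protocols. The authors deposited 1 table of raw counts, whole numbers per gene with no normalization, per the file header and values. Named without a role, per the submitters' processing notes, are Subread 2.0.1, SAMtools 1.10, HISAT2 2.1.0, fastp 0.23.2 and the build GRCm38. Which annotation and strand setting the counting used, and what it did with reads that align to several places, is not given in the sources used here. In each of the 15 lanes more genes had a count of 2 than a count of 1, and whether the 2 reads of a pair were counted once or separately is not given either, so the number of molecules behind a count may be smaller.

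The 15 columns are sequencing lanes of 8 libraries, and lanes were summed per library (WT day 3 library 2 had 1 lane, the others 2). Libraries, not lanes or genes, were the replicates. One edgeR 4.0.16 fit (R 4.3.3) took in the 4 groups, after filterByExpr and TMM. Its robust quasi-likelihood test was adjusted by Benjamini-Hochberg over 16057 genes. Every adjusted p is edgeR's unless another tool is named. SE is the size of the log2 fold change over the root of the F value, and 95% intervals use the t value of the gene's pooled degrees of freedom. CPM uses TMM-scaled library sizes. Gene lengths and overlaps come from GENCODE M21 (GRCm38), which may not be the annotation used for counting. The fit was also run on counts simulated from its own fitted levels and spread. Such a run cannot show whether the spread is technical or how read pairs were counted.

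The members, gene lists and tests were chosen with earlier results of these data known. Every kinesin of the rule is accounted for. Values per library are given for members called in a genotype comparison or the interaction and for the largest changes between days, and up to 4 genes of smallest adjusted p were named from each companion list. Alternatives were RLE size factors, no filter on low counts, lane 1 only, each library left out, each day alone, day 0 libraries of a genotype as 1 sample, a replicate block, DESeq2 1.42.0 and limma voom (limma 3.58.1). Library numbers do not pair the genotypes in the labels.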

Additional observations from a re-analysis of the deposited data

Results flagged for a closer look

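For 9 kinesins the genotype difference itself differed between the days, by the interaction test of the joint edgeR fit, always with a lower value at day 3 than at day 0. Of the mitotic motors, the difference at day 3 minus that at day 0 was -1.14 for Kif18b, -0.97 for Kif4, -0.77 for Kif15, -0.69 for Kif2c, -0.59 for Kif11, -0.57 for Kifc1 and -0.35 for Kif22 on the log2 scale. For all 7 the genotype difference was called at day 0 and not at day 3. Of the other motors, it was -0.61 for Kif1c and -0.45 for Kif13b. The difference of Kif1c between Susd2-/- and WT cells was -0.36 at day 3 and 0.25 at day 0 and was called at neither day, so that its estimates point opposite ways. That of Kif13b was -0.07 at day 3 and 0.38 at day 0, and it was called at day 0 alone. Groups of 2 libraries are too small for a test of outlying samples.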

How the results depend on the processing

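Every called member kept its direction under every alternative. All 11 mitotic kinesins stayed called between the days in both genotypes under the alternatives run there, which do not include the replicate block or each day alone. Of the genotype comparisons, 5 of the 12 calls between genotypes at day 0 (Kif11, Kif15, Kif18b, Kif4 and Kif1b) and 4 of the 9 interaction calls (Kif11, Kif15, Kif18b and Kif4) were never lost. Of the 27 calls between the days in each genotype, 24 held throughout in Susd2-/- cells and 23 in WT cells. With the day 0 libraries of each genotype as 1 sample, 5 mitotic and 1 other kinesin were called at day 0, and 4 mitotic and 0 other in the interaction. With the libraries of day 0 alone, 5 other kinesins were called. Without a filter on low counts 1 other kinesin was called in the interaction. Leaving out 1 library at a time, with the lone library of its group assumed to vary like the others, gave 5 to 9 mitotic and 1 to 4 other calls at day 0, 0 to 1 mitotic and 0 to 3 other calls between genotypes at day 3, and 5 to 7 mitotic and 0 to 2 other interaction calls. Between the days, 13 to 16 other kinesins were called in WT cells and 14 to 19 in Susd2-/- cells.

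Signs changed only for members that were not called. At day 3 the log2 fold change of Susd2-/- over WT became 0.00 for Kif2c with RLE size factors and with DESeq2, 0.04 for Kif2c and 0.03 for Kif4 without a filter, and, from lane 1 alone, 0.06 for Kif4 and -0.09 for Kif18a, whose interaction became -0.01. With 1 library left out it ran from -0.14 to 0.09 for Kif13b, -0.04 to 0.17 for Kif14, -0.00 to 0.09 for Kif20a, -0.07 to 0.00 for Kif20b, -0.01 to 0.09 for Kif22, -0.03 to 0.05 for Kif2c and -0.05 to 0.05 for Kif4. At day 0 that of Kif18a ran from -0.44 to 0.20, and its interaction from -0.16 to 0.50.

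Libraries with the same number did not deviate together (r of deviations 0.009 at day 0 and -0.010 at day 3, over 16057 genes), so the numbers were not read as pairs. With the library number as a replicate block, 9 mitotic and 2 other kinesins were called at day 0, none at day 3, and 6 mitotic and 1 other in the interaction. The calls lost were those of Kif14 at day 0 (0.57) and of Kif22 (-0.35) and Kif13b (-0.45) in the interaction.

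With 2 libraries a group, members with few reads are the least precise, with an SE at day 0 of 0.895 for Kif19a and 0.73 for Kif5a on the log2 scale. The cause of these changes was not tested.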
